A study of Mus musculus with 6 samples.

Results

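The kinesins and the genes of the kinetochore, spindle checkpoint and spindle were chosen by name: every row whose symbol starts with Kif and a digit, every row called Cenp with a single letter from a to w, and 24 named genes of the spindle, checkpoint, kinetochore and anaphase. This gave 80 of the 24197 genes in the table. They comprised 11 mitotic kinesins, 18 transport kinesins, 8 ciliary and microtubule-end kinesins, 18 centromere proteins, 24 further mitotic genes and the pseudogene Kif4-ps. A few kinetochore proteins stand in the table under other symbols (Cenpc1, Itgb3bp, Apitd1 and Stra13) and are given with the other genes of the pathway.

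Cell division depends on a set of proteins that move chromosomes. Mitotic kinesins are microtubule motors that build the spindle, carry chromosomes and bundle the midzone, while other kinesins haul vesicles and organelles, work in cilia or trim microtubule ends in cells that may not be dividing. Kinetochores assemble on the centromere and attach to the spindle, and the spindle checkpoint delays anaphase until every kinetochore is attached. Most of the mitotic genes are transcribed mainly in the last part of the cell cycle. In adipose tissue, progenitor cells proliferate before they differentiate, and lipid-filled adipocytes do not divide.

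The libraries were of polyadenylated RNA from stromal-vascular cells, the non-adipocyte fraction of fat, of the inguinal depot of C57BL/6 mice. After isolation the cells had received a control (puro) retrovirus in 3 samples or a Prdm16 retrovirus in 3 samples. Prdm16 encodes a zinc-finger regulator known from brown and beige fat, and the comparison sets cells forced to express it beside control cells. All cells were in a standard growth medium, and the labels give no age and no time after infection, and do not say whether replicates came from separate animals or cultures. The p-values therefore describe only how far these 6 libraries scatter, which could be technical.

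Library totals ranged from 28169059 to 35798201 counts. Prdm16 itself had 14 to 25 counts in the puro libraries and 72525 to 98437 in the Prdm16 libraries. CPM is the count scaled to the TMM-normalised library size. Log2 fold changes are given ± SE and compare Prdm16 with puro, and adjusted p-values come from the edgeR quasi-likelihood test (Benjamini-Hochberg, 13805 genes). Pdgfra, 1 of 10 listed markers of the fibroblastic progenitors of fat, was present in both groups (means of 199 and 188 CPM). It does not stand for that list, of which 6 of 9 tested were lower with Prdm16. The summed levels of several marker lists, that of the progenitors included, differed between the groups. The 12 markers of mammary epithelium summed to 0.688 to 0.983 CPM in puro and 33.4 to 35.9 CPM in Prdm16 libraries, the latter nearly all from Krt18, Krt19, Cdh1, Esrp1 and Epcam, the 5 tested. Krt8, Krt5, Krt14, Cldn4 and Elf5 had 0 to 3 counts in every library of both groups, and Cldn7 had 37 counts in the 3 puro and 16 in the 3 Prdm16 libraries. The 10 endothelial markers summed to 10.3 to 12.8 and 61.5 to 66.8 CPM, with 2 of 4 tested higher, 1 lower, and Cdh5 and Cldn5 at 0 counts in both groups. The 11 macrophage markers in the table summed to 4.999 to 6.34 and 4.73 to 4.97 CPM, with 1 of 2 tested lower and Emr1, C1qa, C1qb and C1qc at 0 in both. The 10 markers of fibroblastic progenitors summed to 5999 to 6814 and 1658 to 1778 CPM, with 2 of 9 tested higher and 6 lower, and the 8 pericyte markers to 720.4 to 731 and 467 to 483 CPM, with 2 of 6 tested higher and 4 lower. None of the 10 lymphocyte markers was high enough to be tested. The 5 tested mammary markers, Lyz2, Vwf, Rgs5, Thy1 and Lum passed the filter on low counts only through the group where they were high, so that their direction was set by the filter. The part of these markers in the results on mitotic genes was not tested.

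Genes of mitosis rose almost throughout with Prdm16, and the other kinesins went both ways. Of the 53 mitotic genes (mitotic kinesins, centromere, kinetochore, checkpoint, spindle, midzone and anaphase genes), 49 rose, 1 fell and 3 did not pass. Over all genes tested 75.6% passed, 37.5% as higher and 38% as lower, with a median log2 fold change of −0.01, whereas the 53 had a median of 0.81. Their summed level was 4525, 4389 and 4561 CPM in the puro libraries and 9020.3, 9150.3 and 9014 CPM in the Prdm16 libraries. The groups lay far apart by this sum, with a ratio of means of 2.02 and an SD within groups of 90.8 and 77.0 CPM (n = 3). A rise of at least 2-fold was reached by 19 of the 53, against 9.69% of all genes tested, and no mitotic gene fell that far. In RNA from a whole culture, a larger share of dividing cells and more of these RNAs per dividing cell cannot be told apart.

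**Figure D1:**
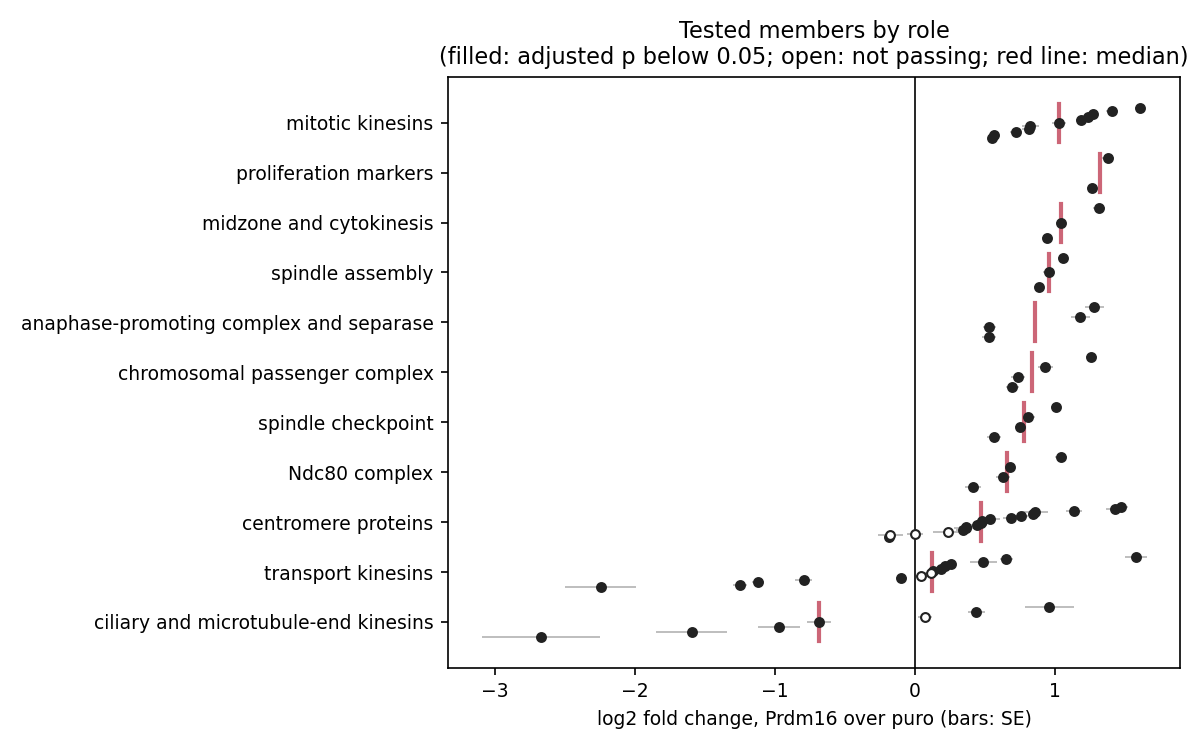
Log2 fold change of each tested gene, Prdm16 over puro, with its SE as a grey bar, by role (filled points passed an adjusted p of 0.05, open points did not, and red lines mark the median). Every mitotic group has its median above 0, from 0.47 for the centromere proteins to 1.32 for the proliferation markers, while the transport kinesins lie on both sides of 0 with a median of 0.12.

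All 11 mitotic kinesins rose, with log2 fold changes of 0.55 to 1.60, a median of 1.03, and no overlap between the groups for any of them (77.6% of all genes tested had groups that did not overlap). Kif11, the plus-end motor that pushes spindle poles apart, changed most as fitted, though not with the median of each chromosome removed (1.22, against 1.38 for Kif14 and Kif23 and 1.26 for Kif22). It was read at 165, 162 and 167 CPM in the puro libraries and 485, 516 and 502 CPM in the Prdm16 libraries. Every Prdm16 library lay far above every puro library, with a log2 fold change of 1.60 ± 0.04 (adjusted p = 1.50e-11). Kif15, a motor that can stand in for Kif11 in holding a spindle bipolar, was at 52.9, 48.2 and 47.1 CPM in the puro libraries and 86.3, 88.9 and 84.8 CPM in the Prdm16 libraries. It rose less than Kif11, by 0.81 ± 0.05 (adjusted p = 4.16e-08).

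Motors of cytokinesis and the midzone were next. Kif14, needed to complete cell separation, was at 27.6, 28.3 and 30.4 CPM in the puro libraries and 77.2, 76.4 and 74.7 CPM in the Prdm16 libraries, and rose by 1.40 ± 0.04 (adjusted p = 2.42e-10). Kif23, the motor of the centralspindlin complex, was at 84.9, 81.01 and 82.5 CPM in the puro libraries and 200.4, 200.4 and 196 CPM in the Prdm16 libraries, a rise of 1.27 ± 0.04 (adjusted p = 9.04e-11). Kif20b, another motor of late cytokinesis, was at 99.3, 99.9 and 99.02 CPM in the puro libraries and 221, 232 and 224 CPM in the Prdm16 libraries. Its log2 fold change was 1.18 ± 0.04 as fitted and 0.80 with the median of chromosome 19 removed. In each of these motors the puro libraries lay close together and well below the Prdm16 libraries. Kif20a, which carries the passenger complex to the midzone, changed least of the 11 as fitted: it was at 186, 181 and 187 CPM in the puro libraries and 269, 269.6 and 273 CPM in the Prdm16 libraries, and rose by 0.55 ± 0.03 (adjusted p = 3.34e-08). Its puro values still lay below all Prdm16 values, and with the median of chromosome 18 removed it had 0.96, so that Kif4 was then the least changed (0.55).

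Among the motors that act on chromosomes and on microtubule ends, Kif22, a chromokinesin that pushes chromosome arms outward, was at 32.9, 29.98 and 33.3 CPM in the puro libraries and 75.1, 73.4 and 77.6 CPM in the Prdm16 libraries. It rose by 1.23 ± 0.05 (adjusted p = 1.21e-09). Kif4, the other chromokinesin, was at 98.9, 94.9 and 96.3 CPM in the puro libraries and 141, 145 and 141 CPM in the Prdm16 libraries, a smaller rise of 0.56 ± 0.04 (adjusted p = 8.93e-08). Its pseudogene Kif4-ps had 0 counts in all 6 libraries, and as the labels do not state how reads shared by 2 genes were counted, the value of Kif4 is uncertain. Kif18a, which damps chromosome movements at the metaphase plate, was the lowest of the 11 in CPM, at 19.8, 20.5 and 19.99 CPM in the puro libraries and 40.1, 40.6 and 42.2 CPM in the Prdm16 libraries, and rose by 1.03 ± 0.05. Kif18b, which shortens astral microtubules, was at 44.1, 48.1 and 51.8 CPM in the puro libraries and 90.4, 80.5 and 83.6 CPM in the Prdm16 libraries, and rose by 0.82 ± 0.06. Kif2c, the depolymerase that corrects faulty attachments at centromeres, was at 102, 95.5 and 102 CPM in the puro libraries and 162, 165 and 166 CPM in the Prdm16 libraries, a rise of 0.72 ± 0.04. The groups were apart for all 3, as they were for 77.6% of all genes tested.

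**Figure D2:**
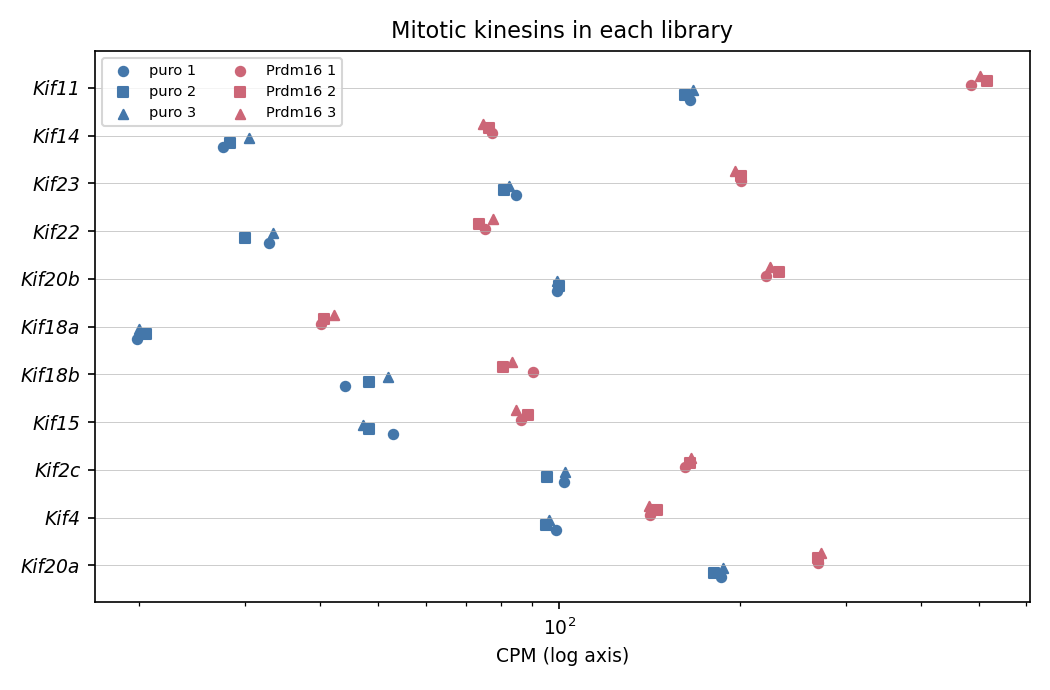
CPM (log axis) of the 11 mitotic kinesins in each of the 3 puro (blue) and 3 Prdm16 (red) libraries, in order of fold change. The red points of every gene lie to the right of its blue points, most widely for Kif11 and least for Kif20a.

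The promoters of these genes are shown because letters that cell-cycle factors are known to read recur in them. The cell cycle genes homology region (CHR) is the site of the MuvB complex, which represses mitotic genes in resting cells and activates them in late cell cycle with Mybl2 and Foxm1. The CCAAT box is the site of NF-Y. Windows of 300 bases, 250 before to 50 after the RefSeq start (build GRCm38.p6), were matched by symbol for 69 of the 80 genes. Each was searched on both strands for TTTGAA or TTTAAA (the CHR letters) and for CCAAT, and a match of one may share an end letter with a match of the other. Below, 120 bases before to 30 after the start are printed, 5′ to 3′ on the strand of the gene, with these letters or their reverse complement in capitals. The first 7 genes rose with Prdm16 and hold both kinds of letters.
Kif11: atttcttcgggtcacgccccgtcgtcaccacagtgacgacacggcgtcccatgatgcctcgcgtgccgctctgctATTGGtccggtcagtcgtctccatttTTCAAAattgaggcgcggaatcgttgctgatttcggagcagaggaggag
Kif23: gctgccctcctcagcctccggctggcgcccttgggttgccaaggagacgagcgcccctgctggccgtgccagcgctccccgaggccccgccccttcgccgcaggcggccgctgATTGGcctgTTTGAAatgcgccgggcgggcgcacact
Kif14: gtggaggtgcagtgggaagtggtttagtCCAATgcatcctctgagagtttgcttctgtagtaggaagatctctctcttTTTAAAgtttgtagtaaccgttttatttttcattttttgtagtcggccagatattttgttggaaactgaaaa
Kif18b: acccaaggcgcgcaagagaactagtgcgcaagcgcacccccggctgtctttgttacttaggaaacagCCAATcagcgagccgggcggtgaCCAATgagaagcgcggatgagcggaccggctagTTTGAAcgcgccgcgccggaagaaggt
Cenpa: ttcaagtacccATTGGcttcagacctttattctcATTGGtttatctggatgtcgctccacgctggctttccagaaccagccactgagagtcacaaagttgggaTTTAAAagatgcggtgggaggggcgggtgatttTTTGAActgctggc
Cdc20: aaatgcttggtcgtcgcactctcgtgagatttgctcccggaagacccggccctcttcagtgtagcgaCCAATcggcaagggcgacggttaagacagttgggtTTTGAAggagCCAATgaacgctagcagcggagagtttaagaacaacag
Prc1: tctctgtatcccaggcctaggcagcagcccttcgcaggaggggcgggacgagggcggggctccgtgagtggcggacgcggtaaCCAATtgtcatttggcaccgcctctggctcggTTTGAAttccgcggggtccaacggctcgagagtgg

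They lie at chr19:37376262-37376411, plus strand (Kif11), chr9:61946770-61946919, minus strand (Kif23), chr1:136467728-136467877, plus strand (Kif14), chr11:102925095-102925244, minus strand (Kif18b), chr5:30666766-30666915, plus strand (Cenpa), chr4:118437314-118437463, minus strand (Cdc20) and chr7:80294331-80294480, plus strand (Prc1). In Kif11 the CCAAT letters start 45 bases and the CHR letters 19 bases before the start of transcription. In Prc1 they start 37 and 5 bases before it. In Kif14 they start 92 and 42 bases before it. In these genes the letters named are a short distance apart with CCAAT upstream, but the order was not general. Kif14 also has CHR letters 228 bases before the start, and Cdc20 has CCAAT letters on both sides of its CHR letters. In Cenpl the CHR letters start 162 bases before the start, upstream of CCAAT letters at 82. The printed genes are examples, and other genes differ from them. Nusap1 and Kif18a hold neither kind of letters and rose by 1.06 and 1.03, and Cenpw holds both and did not pass (−0.18). For contrast, 3 genes whose windows hold no CHR letters are Kif3c, a transport kinesin that fell, Cenpk, a centromere protein that did not pass and whose window holds CCAAT letters, and Cenpp, a centromere protein with a small rise.
Kif3c: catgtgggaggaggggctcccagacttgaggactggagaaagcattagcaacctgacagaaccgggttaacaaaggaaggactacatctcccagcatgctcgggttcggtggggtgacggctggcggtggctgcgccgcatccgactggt
Cenpk: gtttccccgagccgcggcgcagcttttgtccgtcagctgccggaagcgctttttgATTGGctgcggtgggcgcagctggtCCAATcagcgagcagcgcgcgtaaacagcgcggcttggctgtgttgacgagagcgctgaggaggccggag
Cenpp: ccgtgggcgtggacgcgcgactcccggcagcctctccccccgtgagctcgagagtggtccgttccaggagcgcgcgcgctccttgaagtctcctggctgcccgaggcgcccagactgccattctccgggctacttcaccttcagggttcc

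These lie at chr12:3365012-3365161, plus strand (Kif3c), chr13:104228846-104228995, plus strand (Cenpk, one of 3 windows) and chr13:49652702-49652851, minus strand (Cenpp). CHR letters were in 9 of the 10 windows of mitotic kinesins (all but Kif18a, while Kif20a was not matched) and in 12% of the 25 windows of the other kinesins. They were in 19.6% of 13514 windows of tested genes and in 27.6% of all 32851 windows. Over the 52 windows of mitotic genes, 63.5% held CHR letters, 67.3% held CCAAT and 50% held both. CCAAT was in 37.7% and both were in 7.7% of the windows of tested genes. A match describes letters only and says nothing of binding.

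Mitotic genes with CHR letters had larger log2 fold changes as a description of these libraries. The 31 genes with them had a median of 1.004, from −0.18 for Cenpw to 1.60 for Kif11, and 16 of them reached 1. The 17 without them had a median of 0.48, from −0.18 for Cenph to 1.06 for Nusap1, and 2 of them reached 1. The 2 sets differ in make-up: 7 of the 31 and 11 of the 17 were centromere proteins, the mitotic group with the lowest median. Among centromere proteins the median was 0.84 with the letters and 0.37 without, and among the other mitotic genes it was 1.02 for 24 with them and 0.78 for 6 without. Over all tested genes with a window, the median was 0.02 for the 2411 with CHR letters and 0.00 for the 8186 without.

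**Figure D3:**
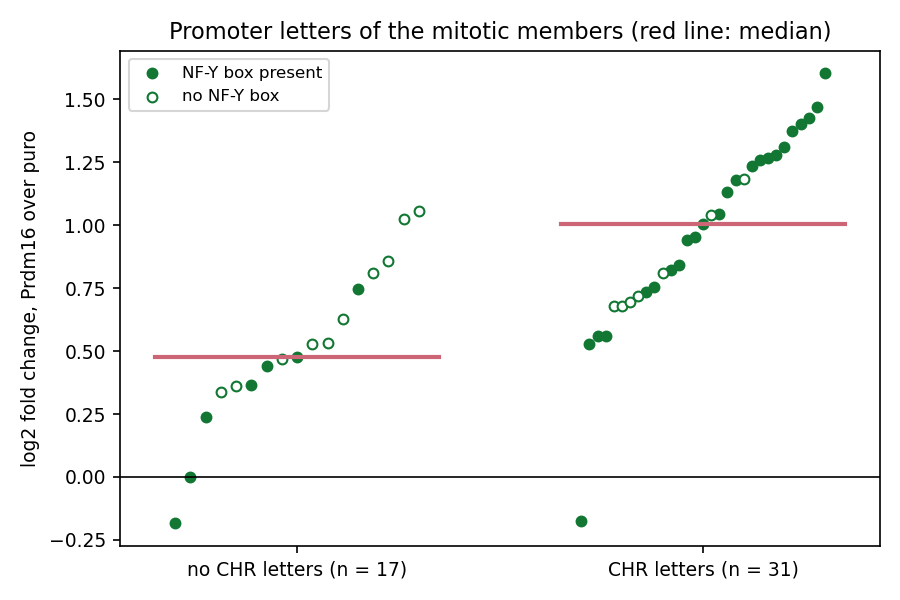
Log2 fold change, Prdm16 over puro, of the 48 mitotic genes with a RefSeq promoter window, split by the presence of CHR letters (each point is a gene, filled where the window also holds an NF-Y box, and red lines are medians). The 31 genes with CHR letters have a median of 1.004 and the 17 without a median of 0.48, and both groups span a wide, overlapping range.

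The proliferation markers rose strongly. Top2a, the topoisomerase that untangles chromosomes, had the highest level per length of all 80 genes. It was read at 558, 526 and 541 CPM in the puro libraries and 1265, 1336 and 1290.4 CPM in the Prdm16 libraries, a log2 fold change of 1.26 ± 0.04 (adjusted p = 1.23e-10). Mki67, which coats mitotic chromosomes, was at 349, 315 and 328 CPM in the puro libraries and 852, 892 and 830.2 CPM in the Prdm16 libraries, and rose by 1.38 ± 0.05 (adjusted p = 2.94e-10). For both, all Prdm16 libraries lay far above the highest puro library.

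Spindle and midzone genes followed. The kinase Aurka, which matures centrosomes, was at 51.02, 48.9 and 50.2 CPM in the puro libraries and 94.2, 97.8 and 98.5 CPM in the Prdm16 libraries and rose by 0.95 ± 0.04. Tpx2, its activator on the spindle, was at 192, 189.6 and 198 CPM in the puro libraries and 347, 361 and 359.6 CPM in the Prdm16 libraries and rose by 0.88 ± 0.03. Nusap1, a microtubule bundler, was at 85.4, 83.1 and 87.5 CPM in the puro libraries and 175, 175 and 182 CPM in the Prdm16 libraries and rose by 1.06 ± 0.04. The 3 rose by like amounts with no overlap between groups (as in 77.6% of all genes tested), and their largest adjusted p was 1.74e-09. Ect2, the exchange factor that starts the contractile ring, changed most of the midzone genes, from values at 107, 105 and 105 CPM in the puro libraries and 248, 271 and 269 CPM in the Prdm16 libraries, with a log2 fold change of 1.31 ± 0.04. Anln, a scaffold of that ring, was at 194, 192 and 196 CPM in the puro libraries and 387, 410.3 and 399.5 CPM in the Prdm16 libraries and rose by 1.04 ± 0.03. Prc1, which crosslinks midzone microtubules, was at 171, 161 and 171 CPM in the puro libraries and 324, 325 and 317 CPM in the Prdm16 libraries and rose by 0.94 ± 0.04 (adjusted p = 1.00e-09, the largest of these 3).

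The chromosomal passenger complex corrects attachments and guides cytokinesis, and its 4 genes rose by unequal amounts as fitted. Incenp, its scaffold, was at 118, 118 and 128 CPM in the puro libraries and 292, 286 and 291 CPM in the Prdm16 libraries, with a log2 fold change of 1.26 ± 0.04 (adjusted p = 2.12e-10). Its kinase Aurkb was at 55.2, 54.9 and 62.3 CPM in the puro libraries and 112, 109 and 107 CPM in the Prdm16 libraries and rose by 0.93 ± 0.05. Cdca8, also known as borealin, was at 57.4, 57.1 and 62.2 CPM in the puro libraries and 103, 94.6 and 96.5 CPM in the Prdm16 libraries and rose by 0.73 ± 0.05. The targeting subunit Birc5, survivin, rose least: it was at 70.7, 63.9 and 65.2 CPM in the puro libraries and 108, 105 and 110.0 CPM in the Prdm16 libraries, a log2 fold change of 0.69 ± 0.05 (adjusted p = 1.10e-07). In all 4 the lowest Prdm16 library lay above the highest puro library, though 77.6% of all genes tested had groups that did not overlap. With the median of each chromosome removed, Incenp had 0.87, Aurkb 0.98, Cdca8 0.77 and Birc5 0.745. The values were then closer together, and Aurkb rose most.

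The spindle checkpoint genes rose by 0.56 to 1.004 on the log2 scale. Bub1b, the BubR1 subunit of the inhibitor of anaphase, was at 102, 103 and 97.8 CPM in the puro libraries and 197, 207 and 203 CPM in the Prdm16 libraries, a rise of 1.004 ± 0.04 (adjusted p = 9.57e-10). Mad2l1, which binds Cdc20 in that inhibitor, was at 75.1, 68.7 and 66.2 CPM in the puro libraries and 120.4, 125 and 122 CPM in the Prdm16 libraries and rose by 0.81 ± 0.05. The kinase Bub1 was at 74.7, 73.5 and 74.7 CPM in the puro libraries and 124, 125 and 124 CPM in the Prdm16 libraries and rose by 0.75 ± 0.04. No puro library reached a Prdm16 library in any of these, and groups did not overlap in 77.6% of all genes tested. Ttk, the kinase that starts the signal, was at 49.8, 46.7 and 43.1 CPM in the puro libraries and 68.5, 68.6 and 68.9 CPM in the Prdm16 libraries and rose least, by 0.56 ± 0.05 (adjusted p = 1.35e-06).

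Genes that trigger anaphase all rose. Cdc20, the activator of the anaphase-promoting complex and the target of the checkpoint, was at 80.6, 76.7 and 93.4 CPM in the puro libraries and 214, 195 and 199 CPM in the Prdm16 libraries, a log2 fold change of 1.28 ± 0.07 (adjusted p = 1.52e-08). Ube2c, the ubiquitin-conjugating enzyme of that complex, was at 56.2, 58.4 and 66.7 CPM in the puro libraries and 144, 129 and 139 CPM in the Prdm16 libraries and rose by 1.18 ± 0.06. Both groups were apart for these genes (as for 77.6% of all genes tested), and the highest puro value of each was in puro replicate 3. Espl1, separase, which cuts cohesin, was at 87.2, 88.3 and 97.1 CPM in the puro libraries and 134, 133 and 127 CPM in the Prdm16 libraries and rose by 0.53 ± 0.05. Its inhibitor Pttg1, securin, was at 26.1, 27.9 and 26.1 CPM in the puro libraries and 38.9, 37.997 and 38.5 CPM in the Prdm16 libraries and rose by 0.53 ± 0.05 (adjusted p = 1.48e-06). The enzyme and its inhibitor had like values here, but with the median of each chromosome removed Espl1 had 0.91 and Pttg1 0.58.

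The Ndc80 complex is the microtubule-binding rod of the kinetochore and holds 1 copy of each of 4 proteins. Spc25 was at 58.6, 56.8 and 61.5 CPM in the puro libraries and 121, 119 and 125 CPM in the Prdm16 libraries and rose by 1.04 ± 0.04 (adjusted p = 1.98e-09). Ndc80 was at 47.7, 49.9 and 48.8 CPM in the puro libraries and 78.2, 78.96 and 77.3 CPM in the Prdm16 libraries and rose by 0.68 ± 0.04, and Nuf2 was at 72.3, 75.3 and 71.96 CPM in the puro libraries and 106, 118 and 116 CPM in the Prdm16 libraries and rose by 0.63 ± 0.05. Spc24, which pairs with Spc25, was at 26.2, 27.2 and 28.8 CPM in the puro libraries and 37.97, 34.2 and 37.1 CPM in the Prdm16 libraries and rose by 0.41 ± 0.06 (adjusted p = 5.26e-05). Per kilobase of exon, mean levels went from 37.2 to 76.6 CPM for Spc25 and from 11.99 to 15.9 CPM for Spc24, so that these partners were further apart in the Prdm16 libraries. Lengths are the union of annotated exons, which can exceed the transcript in use.

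Centromere proteins were the least uniform of the mitotic groups. Of 18 tested, 14 rose, 1 fell and 3 did not pass, with a median log2 fold change of 0.47. The share passing was 83.3%, against 75.6% of all genes tested, of which 37.5% were higher and 38% lower. Cenpf, a large protein of the outer kinetochore, was at 117, 107 and 116 CPM in the puro libraries and 321, 325 and 295 CPM in the Prdm16 libraries and rose by 1.47 ± 0.05 (adjusted p = 3.16e-10). Cenpa, the histone variant that marks the centromere, was at 67.5, 65.3 and 76.3 CPM in the puro libraries and 196, 176 and 189 CPM in the Prdm16 libraries and rose by 1.42 ± 0.06 (adjusted p = 2.89e-09). Cenpe, the kinesin that moves chromosomes to the spindle equator, was at 169.5, 157 and 162 CPM in the puro libraries and 288, 303 and 285 CPM in the Prdm16 libraries and rose by 0.84 ± 0.04 (adjusted p = 6.06e-09). The Prdm16 values of all 3 lay far above the puro values.

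The inner kinetochore network that sits on Cenpa, known as the CCAN, was split within some of its subcomplexes. Cenpl was at 15.3, 14.2 and 15.7 CPM in the puro libraries and 32.7, 32.7 and 33.8 CPM in the Prdm16 libraries, a rise of 1.13 ± 0.06 (adjusted p = 8.25e-09), and its partner Cenpn rose by 0.75 ± 0.05. In the subcomplex of Cenph, Cenpi, Cenpk and Cenpm, Cenpi rose by 0.48 ± 0.05. Cenph fell slightly: it was at 40.7, 40.2 and 40.9 CPM in the puro libraries and 35.8, 34.96 and 36.5 CPM in the Prdm16 libraries, a log2 fold change of −0.18 ± 0.04 (adjusted p = 0.00196). Cenpk was at 34.9, 36.3 and 33.3 CPM in the puro libraries and 34.8, 32.7 and 36.8 CPM in the Prdm16 libraries, with −0.00 ± 0.06 (adjusted p = 0.986). Its libraries were interleaved between the groups. Cenpm was at 21.8, 21.2 and 26.8 CPM in the puro libraries and 31.7, 23.5 and 26.8 CPM in the Prdm16 libraries, with 0.24 ± 0.11 (adjusted p = 0.0735), and passed without puro replicate 3 (0.35), without Prdm16 replicate 2 (0.33), and under DESeq2 (0.24), no filter (0.26) and the replicate block (0.23).

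Cenpt rose by 0.68 ± 0.05, whereas its histone-fold partner Cenpw was at 37.9, 43.3 and 45.3 CPM in the puro libraries and 41.9, 32.1 and 37.7 CPM in the Prdm16 libraries, with −0.18 ± 0.09 (adjusted p = 0.0996). Cenpw was lowest in Prdm16 replicate 2 and in puro replicate 1, and passed as lower without puro replicate 1 (−0.25) or without Prdm16 replicate 1 (−0.26). Of the other histone-fold partners, listed under older symbols, Apitd1 had −0.34 ± 0.07 (adjusted p = 0.00116) and Stra13 0.29 ± 0.09 (adjusted p = 0.0114). The subcomplex of Cenpo, Cenpp, Cenpq and Cenpu rose together by 0.34 to 0.53, while its further member, listed as Itgb3bp, fell, at −0.22 ± 0.05 (adjusted p = 0.00302). Cenpc1, which anchors the network to Cenpa, rose by 0.71 ± 0.04 (adjusted p = 1.87e-08). Cenpb, which binds a motif of centromeric repeats, Cenpj, which despite its symbol builds centrioles, and Cenpv rose by 0.36 ± 0.08, 0.47 ± 0.05 and 0.86 ± 0.09. As a share of Cenpa plus Cenph per kilobase of exon, Cenpa made up 55.3% to 58.7% in the puro libraries and 79.3% to 80.7% in the Prdm16 libraries. Cenpa rose and Cenph fell, so this share only restates their fold changes.

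The other kinesins, of transport, cilia and microtubule ends, had no common direction. Kif2a and Kif2b are counted here among those of microtubule ends, although both also act on the spindle. Of the 26 listed, 21 were tested, of which 9 rose, 9 fell and 3 did not pass, with a median log2 fold change of 0.07. That is 85.7% passing, against the 75.6% of all genes. Kif26b and Kif6, among the 9 that fell, passed the filter on low counts through the puro libraries alone. Their direction was set by the filter, so they add nothing to the balance of rises and falls. Their summed level was 1371, 1348 and 1352 CPM in the puro libraries and 1356, 1426 and 1383 CPM in the Prdm16 libraries, so the groups overlapped by the sum.

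Among transport kinesins, 7 of 14 tested rose, 5 fell (with Kif26b, whose direction was set by the filter) and 2 did not pass. The share passing was 85.7%, against 75.6% of all genes tested. Kif21a, which restrains microtubule growth at the cell cortex, was at 13.8, 14.6 and 11.5 CPM in the puro libraries and 39.3, 39.6 and 40.05 CPM in the Prdm16 libraries. It rose by 1.58 ± 0.08 (adjusted p = 6.63e-09), the largest rise among these kinesins. Its close relative Kif21b went the other way, from values at 54.2, 56.99 and 54.6 CPM in the puro libraries and 24.5, 22.1 and 22.9 CPM in the Prdm16 libraries, a log2 fold change of −1.25 ± 0.05 (adjusted p = 1.49e-09). Per kilobase of exon Kif21a made up 26.4%, 26.5% and 22.9% of the pair in the puro libraries and 69.3%, 71.6% and 71.1% in the Prdm16 libraries. The more abundant gene of the pair thus changed from Kif21b to Kif21a.

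Kinesin-2 pairs Kif3a with either Kif3b, for transport in cilia, or Kif3c. Kif3c was at 69.8, 72.04 and 70.1 CPM in the puro libraries and 31.7, 34.2 and 31.7 CPM in the Prdm16 libraries and fell, at −1.12 ± 0.04 (adjusted p = 1.16e-09). Kif3a was at 93.4, 91.2 and 90.2 CPM in the puro libraries and 108, 112 and 108 CPM in the Prdm16 libraries and rose by 0.25 ± 0.04 (adjusted p = 8.52e-05). Kif3b was at 106, 102 and 98.6 CPM in the puro libraries and 108, 114 and 112 CPM in the Prdm16 libraries and rose by 0.12 ± 0.04 (adjusted p = 0.018). The small difference in Kif3b, with groups that did not overlap, no longer passed without puro replicate 2 (0.12, adjusted p = 0.0586) and without Prdm16 replicate 2 (0.11, adjusted p = 0.0548). Kif3c made up 34.95%, 36.6% and 36.7% of Kif3b plus Kif3c per kilobase in the puro libraries and 19.3%, 19.6% and 18.8% in the Prdm16 libraries, so that the share of the ciliary partner was larger with Prdm16.

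Kinesin-1 carries mitochondria and vesicles along microtubules. Its ubiquitous heavy chain Kif5b had the highest level per kilobase of these kinesins in puro libraries. It was at 238, 231 and 229 CPM in the puro libraries and 206, 225 and 222 CPM in the Prdm16 libraries, with a log2 fold change of −0.10 ± 0.04 (adjusted p = 0.0455), a small fall that no longer passed when puro replicate 1 (−0.08) or 2 (−0.11) or Prdm16 replicate 1 (−0.05) or 3 (−0.11) was left out, nor with RLE scaling (−0.09), DESeq2 (−0.09) or no filter (−0.08). The chain known from neurons, Kif5c, was at 26.1, 24.7 and 24.6 CPM in the puro libraries and 13.5, 15.2 and 14.8 CPM in the Prdm16 libraries and fell, at −0.79 ± 0.06 (adjusted p = 4.95e-07). Kif5a, the third chain, was at 5.22, 4.84 and 5.602 CPM in the puro libraries and 7.33, 7.77 and 6.89 CPM in the Prdm16 libraries and rose by 0.49 ± 0.09 (adjusted p = 0.00066). The 3 heavy chains thus moved in different directions.

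Kif13a, an endosome motor, was at 42.2, 42.2 and 44.8 CPM in the puro libraries and 70.5, 67.7 and 64.7 CPM in the Prdm16 libraries and rose by 0.65 ± 0.05 (adjusted p = 1.64e-07). Its relative Kif13b was at 53.9, 52.7 and 54.3 CPM in the puro libraries and 61.2, 63.5 and 61.6 CPM in the Prdm16 libraries, a rise of 0.21 ± 0.04 (adjusted p = 0.000298) that turned to −0.27 with the median of chromosome 14 removed. Kif1b, a motor of synaptic vesicle precursors and mitochondria, rose by 0.18 ± 0.04. Kif26b, an atypical kinesin without motor activity, was low, at 1.61, 1.83 and 1.97 CPM in the puro libraries and 0.284, 0.276 and 0.569 CPM in the Prdm16 libraries, with −2.24 ± 0.25 (adjusted p = 1.00e-05). It passed the filter on low counts through the puro libraries alone, so that its direction was set by the filter. Kif1c (0.04 ± 0.03, adjusted p = 0.268) and Kif16b (0.11 ± 0.06, adjusted p = 0.119) did not pass, and Kif16b passed without Prdm16 replicate 1 (0.17).

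Ciliary and microtubule-end kinesins fell for 4 (with Kif6, whose direction was set by the filter), rose for 2 and did not pass for 1 of 7 tested. The share passing was 85.7%, against 75.6% of all genes tested. Kif7, which organises the tip of the primary cilium for Hedgehog signalling, was at 24.1, 24.2 and 28.3 CPM in the puro libraries and 17.3, 15.7 and 14.6 CPM in the Prdm16 libraries and fell, at −0.69 ± 0.08 (adjusted p = 1.80e-05). Its relative Kif27 was at 1.16, 1.38 and 0.954 CPM in the puro libraries and 2.33, 2.52 and 1.98 CPM in the Prdm16 libraries and rose by 0.96 ± 0.18 (adjusted p = 0.000472). Kif24, which trims centriolar microtubules, was at 16.5, 17.6 and 17.8 CPM in the puro libraries and 21.9, 24.1 and 24.5 CPM in the Prdm16 libraries and rose by 0.44 ± 0.06 (adjusted p = 7.28e-05). No library of one group reached into the other for these 3, as for 77.6% of all genes tested.

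Kif9 and Kif6, known from motile cilia, and Kif19a, a depolymerase that limits cilium length, were low and fell. Kif9 was at 5.26, 5.103 and 4.47 CPM in the puro libraries and 2.98, 2.63 and 1.95 CPM in the Prdm16 libraries, a log2 fold change of −0.97 ± 0.15 (adjusted p = 0.000127). Kif19a was at 1.52, 1.15 and 1.73 CPM in the puro libraries and 0.625, 0.37997 and 0.419 CPM in the Prdm16 libraries, with −1.59 ± 0.25 (adjusted p = 0.000159). Kif6 was at 0.548, 0.487 and 0.596 CPM in the puro libraries and 0.0284, 0.138 and 0.0899 CPM in the Prdm16 libraries, from 54 counts in the 3 puro and 8 in the 3 Prdm16 libraries, with −2.67 ± 0.42 (adjusted p = 0.000149). Kif6, like Kif26b, passed the filter on low counts through the puro libraries alone, so that its direction was set by the filter. Kif2a, a depolymerase of both neurons and spindle poles, was at 80.7, 77.8 and 74.97 CPM in the puro libraries and 77.2, 87.05 and 80.9 CPM in the Prdm16 libraries and did not pass (0.07 ± 0.05, adjusted p = 0.228).

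**Figure D4:**
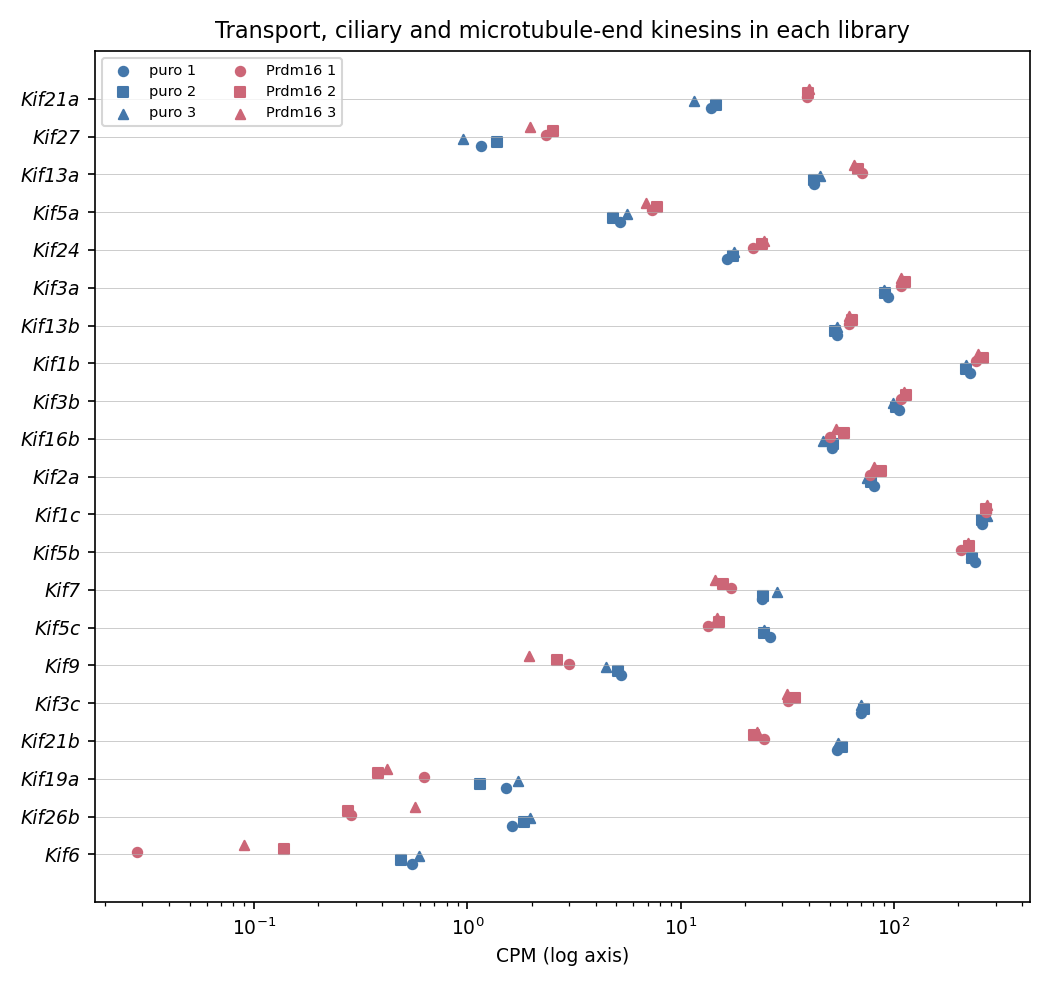
CPM (log axis) of the 21 tested transport, ciliary and microtubule-end kinesins in each of the 3 puro (blue) and 3 Prdm16 (red) libraries, ordered from the largest rise at the top to the largest fall at the bottom. Kif21a stands at the top with a log2 fold change of 1.58 and Kif6 at the bottom with −2.67, and the abundant Kif1c, Kif3b and Kif5b lie near 0.

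6 of the 80 genes were too low to be tested. Kif12, Kif2b and Kif4-ps had 0 counts in all 6 libraries, where an upper limit of 3 counts, for counting error alone, stands for 0.0852 to 0.104 CPM. Kif1a, a motor of neurons, had 9 counts in the 3 puro and 9 in the 3 Prdm16 libraries, Kif26a had 7 counts in the 3 puro and 11 in the 3 Prdm16 libraries, and Kif17, a motor of dendrites and cilia, had 23 counts in the 3 puro and 32 in the 3 Prdm16 libraries.

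Genes tend to share the shift of their chromosome in these data, with chromosome medians from −0.41 on chromosome 18 to 0.49 on chromosome 14. With those medians removed, all 11 mitotic kinesins were still higher, at 0.55 to 1.38, and the counts of centromere proteins were again 14 higher and 1 lower, with Cenpm in the place of Cenpj. Some calls depended on this. On chromosome 14, Cenpj had −0.02 (adjusted p = 0.783) and Kif13b turned to −0.27 (adjusted p = 4.48e-05). On chromosome 18, Kif5b turned to 0.31 (adjusted p = 3.51e-05). Cenpm, on chromosome 15, then passed as higher (0.62), Kif1c passed (0.095) and Kif3b no longer did (0.08).

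**Figure D5:**
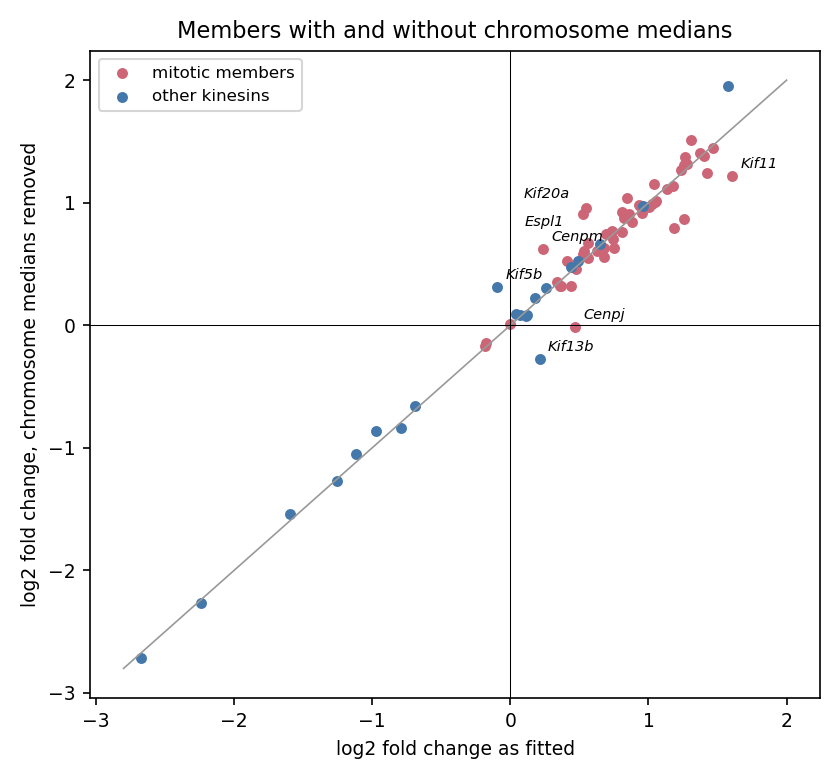
Log2 fold change of each tested gene as fitted (x axis) and with the median of its chromosome removed (y axis), for mitotic genes (red) and other kinesins (blue), with a grey line where both are equal. Most points lie near the line, and Cenpj, Kif13b and Kif5b cross 0 or reach it.

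The other genes of the pathway were higher in 97, lower in 19 and not passing in 16 of 132 tested, with a median log2 fold change of 0.43, against 37.5% higher and 38% lower and a median of −0.01 over all genes. Kinases and cyclins of mitotic entry rose for 14 of 16, fell for 1 and did not pass for 1. The mitotic kinase Pbk rose by 1.73 ± 0.04 and cyclin B1, Ccnb1, by 1.25 ± 0.04, while Cdc25a, a phosphatase also used at the start of S phase, fell, at −0.13 ± 0.05 (adjusted p = 0.0279). Of 18 cohesin and condensin genes 15 rose, 1 fell and 2 did not pass. The condensin subunits Ncapd2 and Ncapg rose by 1.02 ± 0.03 and 0.90 ± 0.04, and Ncaph2, of condensin II, fell, at −0.33 ± 0.03.

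Spindle and cytokinesis genes outside the 80 rose for 25, fell for 5 and did not pass for 3 of 33. The share passing was 90.9%, against 75.6% of all genes tested. Aspm, which focuses spindle poles, rose by 1.49 ± 0.05 and Cep55, which acts in the final cut between daughter cells, by 1.44 ± 0.04. The dynein regulator Ndel1 and the augmin subunit Haus1 fell, at −0.38 ± 0.04 and −0.58 ± 0.06. Other kinetochore and checkpoint genes rose for 17, fell for 5 and did not pass for 5 of 27. Here 81.5% passed, near the 75.6% of all genes tested. The outer kinetochore subunit Dsn1 rose by 0.78 ± 0.04, while the checkpoint protein Zwilch fell, at −0.20 ± 0.04. The list of the anaphase-promoting complex also holds its regulators Fbxo5, Ube2s and Fzr1, all of which rose. With them, 8 of 15 rose, 4 fell and 3 did not pass. That is 80% passing, near the 75.6% of all genes, with a median of 0.10. The inhibitor Fbxo5 and the conjugating enzyme Ube2s rose by 1.32 ± 0.04 and 1.06 ± 0.05. The core subunits Cdc16 and Anapc13 fell, at −0.32 ± 0.04 and −0.28 ± 0.05. With the chromosome median subtracted, the named falls Ncaph2, Haus1, Zwilch, Anapc13 and Cdc25a had 0.06, −0.17, −0.09, −0.17 and −0.02, while Cdc16 had −0.44 and Ndel1 −0.33. The named rises Pbk and Cep55 had 1.24 and 1.05.

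Regulators of mitotic promoters rose for 18, fell for 3 and did not pass for 2 of 23. The share passing was 91.3%, against 75.6% of all genes tested. The atypical repressor E2f7 rose by 1.04 ± 0.04 and the pocket protein Rbl1 by 0.69 ± 0.03, whereas Lin54, the MuvB subunit that reads the CHR, fell, at −0.47 ± 0.04 (adjusted p = 1.79e-06, and −0.65 with the chromosome median subtracted), as did E2f3, at −0.13 ± 0.05 (adjusted p = 0.0225). Named after their values were seen, the MuvB partner Mybl2 rose by 1.25 ± 0.07 and Foxm1 by 0.69 ± 0.04, and E2f1 had 0.05 ± 0.04 (adjusted p = 0.278). The MuvB subunits other than Lin54, also named afterwards, had no common direction. Lin9 (0.12 ± 0.05) and Rbbp4 (0.22 ± 0.04) were higher, Lin52 (−0.20 ± 0.07) was lower and Lin37 (−0.14 ± 0.09) did not pass.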

How the data were processed

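The authors deposited raw counts, 1 whole number for each of 24197 gene symbols in each of the 6 libraries. The submitters' processing notes name STAR, featureCounts, Subread and the build mm9, with no role or order. Neither the labels nor the header state the strand setting or the counting of shared reads, so values of overlapping, antisense and near-identical genes are uncertain. Genes were kept by filterByExpr, which left 13805, and tested with edgeR 4.0.16 in R 4.3.3 (TMM scaling, two-sided quasi-likelihood test, Benjamini-Hochberg adjustment, adjusted p below 0.05). The common biological coefficient of variation was 4.78%. On simulated counts over 13704 genes with known changes, the test recovered 96.7%, 94.5% and 100% of genes changed by a log2 of 0.5, 1 and 2. Only 60, 73 and 66 genes were changed there, with a single dispersion and no shifts of chromosomes. In the data 75.6% of genes passed, and the scaling under so many changes was not tested. Replicates of a group differed by more than sampling noise in every pair (chi-square per gene 2.08 to 8.85, where noise gives 1).

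Chromosomes and exon lengths were taken by symbol from GENCODE M21 (GRCm38) and RefSeq, another build than the counts, with lengths for all 80 genes. The members, the gene lists and the tests were chosen with earlier results of these data known. Named genes were all tested members of the mitotic kinesins and small mitotic groups, up to 5 per direction of the transport and of the ciliary kinesins, up to 4 per direction of the centromere proteins with those not passing, and up to 2 per direction of each pathway list. The other members are given for completeness, and 1 gene of a pathway list is not reported here. The settings varied were the scaling (RLE, upper-quartile), 2 other filters, DESeq2 1.42.0, limma-voom (limma 3.58.1), a test against a log2 change of 0.5, an adjusted p of 0.01, a replicate block, Prdm16 left out of the counts, chromosome medians removed, and each library left out in turn.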

Additional observations from a re-analysis of the deposited data

How the results depend on the processing

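All 11 mitotic kinesins were higher under every alternative run except the test against a log2 change of 0.5, which called 9 (not Kif4 and Kif20a). That test called 39 members higher and 8 lower, against 15.4% and 17% of all genes tested, and 3 transport, ciliary and microtubule-end kinesins higher in place of 9. In the other alternatives 57 to 59 members were higher and 9 or 10 lower, and leaving out 1 library gave the same ranges. Upper-quartile scaling shifted the median of all genes by −0.02 and changed no member's call. With chromosome medians removed, Cenpj (−0.017), Kif13b (−0.27) and Kif5b (0.31) changed sign, since that fit subtracts the median of chromosome 14 or 18. The deviations of libraries with the same replicate number from their group means had correlations of −0.164, 0.099 and −0.067. Of the puro libraries only replicate 2 correlated best with the Prdm16 library of its own number. The labels state no pairing, and with 3 libraries per group these correlations cannot decide whether same-numbered libraries belong together. With the replicate block 59 members were higher and 9 lower, as Cenpm passed (0.23) and Kif5b did not (−0.10). Few or no reads were counted for the 6 untested genes, and Kif6, Kif19a and Kif26b were low. Whether depth limited these genes was not tested.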
